A study of Mus musculus with 20 samples.

Results

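The RNA polymerases, the general transcription factors, the TBP-associated factors (TAFs) and the Mediator complex were followed as transcripts from the mouse egg to the 2-cell embryo. Members were the rows whose gene symbol starts with Polr1, Polr2 or Polr3 and a letter, with Gtf2 and the letter a, b, e, f or h, or with Taf or Med and a digit. This rule found 95 of the 24411 gene symbols: 5 of RNA polymerase I, 13 of polymerase II, 10 of polymerase III, 13 general factors, 23 TAFs, 30 Mediator subunits and Med9os. Med9os is annotated as an antisense transcript and codes for no Mediator subunit, so it was put in none of the groups. Poly(A) RNA was measured in 20 untreated samples from animals with no engineered genotype named in the labels, each sample a batch of 10 to 15 eggs or embryos. B6CASTF1 is an F1 hybrid (cross direction not given in the sources used here) and had 3 samples of G1 zygotes, 3 of G2 zygotes and 2 of 2-cell embryos taken in G2. C57BL/6J, an inbred strain, had 3 samples at each of 4 stages: the MII egg, the G1 zygote, the G2 zygote and the 2-cell embryo in G2. MII eggs are arrested in the second meiotic division. The oocytes matured in culture, and zygotes and embryos came from fertilization in vitro and culture, so none developed in the oviduct. The animals' age and the number of females per sample are not given in the sources used here.

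RNA polymerase I transcribes the large ribosomal RNA, polymerase II the messenger RNAs, and polymerase III transfer RNAs, the small 5S ribosomal RNA and other short RNAs. At a polymerase II promoter TFIID, made of the TATA-binding protein TBP and TAFs, is joined by TFIIA, TFIIB, TFIIF, TFIIE and TFIIH, and Mediator links activators to the polymerase. The mouse egg is transcriptionally silent and works from stored RNA. Transcription from the embryo's own genome starts weakly in the zygote and strongly in the late 2-cell embryo, while stored RNAs are degraded, so the mRNAs of this machinery can come from either source.

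All values come from tables in which the authors compared each stage with the stage before it. These hold no value per sample, so the spread among samples is seen only through the SE of a log2 fold change. A member was called higher or lower where the authors' adjusted p (DESeq2's Wald test, Benjamini-Hochberg) was under 0.05. A level is the approximate mean normalized count of a stage, worked out from the deposited mean count and fold changes, and has no SD. Where a level was under 1 count the fitted fold change has no firm size, and levels are given in its place. The lowest mean counts that recur in the tables gave 8 libraries behind the B6CASTF1 fit and 12 behind the C57BL/6J fit, with size factors from 0.642 to 1.16 and from 0.545 to 1.27. The members' median SE was 0.26 to 0.29 in B6CASTF1 and 0.57 in C57BL/6J. A member could therefore pass the threshold with a smaller change in B6CASTF1. At the 2-cell step well-measured genes, those averaging 100 counts or more, had a median log2 fold change of 0.22 in B6CASTF1 and 0.20 in C57BL/6J, and the members' changes are to be read against it. Whether the samples of a stage stem from different females, clutches or experiments is unstated, so the p-values measure a spread that may be technical. A change in RNA amount cannot be told apart from a change in poly(A) tail length in libraries primed with oligo-dT. All values are relative to the other poly(A) RNA captured from a sample.

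The stage markers, as sums, followed the labels, except that the egg sum of C57BL/6J did not fall from G1 to G2 zygotes. The 8 egg and oocyte markers summed to levels of 218056 in G1 zygotes, 96851 in G2 zygotes and 11671 in 2-cell embryos of B6CASTF1, and to 165456 in MII eggs, 65113 in G1 zygotes, 66467 in G2 zygotes and 6901 in 2-cell embryos of C57BL/6J. The 6 markers of the 2-cell stage summed to 431, 1824 and 17627 over the same stages of B6CASTF1, and to 241, 371, 1139 and 5588 in C57BL/6J. Single markers departed from these sums. The egg marker Zp3 was called higher in 2-cell embryos than in G2 zygotes of both strains. Nlrp5 and Ooep were called higher in G2 than in G1 zygotes of B6CASTF1. In C57BL/6J Nlrp5 was at 7713 in G2 and 3233 in G1 zygotes, and Ooep at 26691 and 10960, with neither called. Dux was at 15.99 in 2-cell embryos and 147 in G2 zygotes of B6CASTF1. In the same stages of C57BL/6J it was at 0.475 and 28.6, and neither Dux difference passed the threshold. Markers of other cells also moved at the 2-cell step. Of the 8 cumulus and granulosa markers, 7 had a value in B6CASTF1 and 6 in C57BL/6J, and their sum was 1261 in 2-cell embryos and 1428 in G2 zygotes of B6CASTF1, and 302 in 2-cell embryos and 844 in G2 zygotes of C57BL/6J. Within that list Cyp19a1 fell to levels of 24.5 in B6CASTF1 and 4.05 in C57BL/6J 2-cell embryos, while Amhr2 reached 891 and 286. Tnfaip6, another of them, was at 299 in 2-cell embryos and 7.50 in G2 zygotes of B6CASTF1. In the same stages of C57BL/6J it was at 8.09 and 5.70. Tnfaip6 had no adjusted p at this step in either strain. Foxl2, a defining granulosa marker, was at 2.02 or less in C57BL/6J and had no value in B6CASTF1. Of the 3 blood markers the haemoglobin gene Hba-a1 reached 2858 in B6CASTF1 and 3827 in C57BL/6J 2-cell embryos, with Ptprc under 1 in both and no value for Hbb-bs. The 4 sperm and testis markers with a value summed to 24.8 to 136.7 over the B6CASTF1 stages. In C57BL/6J the 5 with a value summed to 72.2 to 177. Prm1 was at 2.44 or less, and the highest in each stage was Prm2 or Odf1. Prm2 was at 12.5 in 2-cell embryos and 96.7 in G2 zygotes of B6CASTF1 and was called lower. In the same stages of C57BL/6J it was at 43.9 and 146 and was not called. Odf1 was at 71.7 in C57BL/6J 2-cell embryos. In these samples fewer cells of a kind and less RNA per cell cannot be told apart, and the part of such cells in the results below was not tested.

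**Figure D1:**
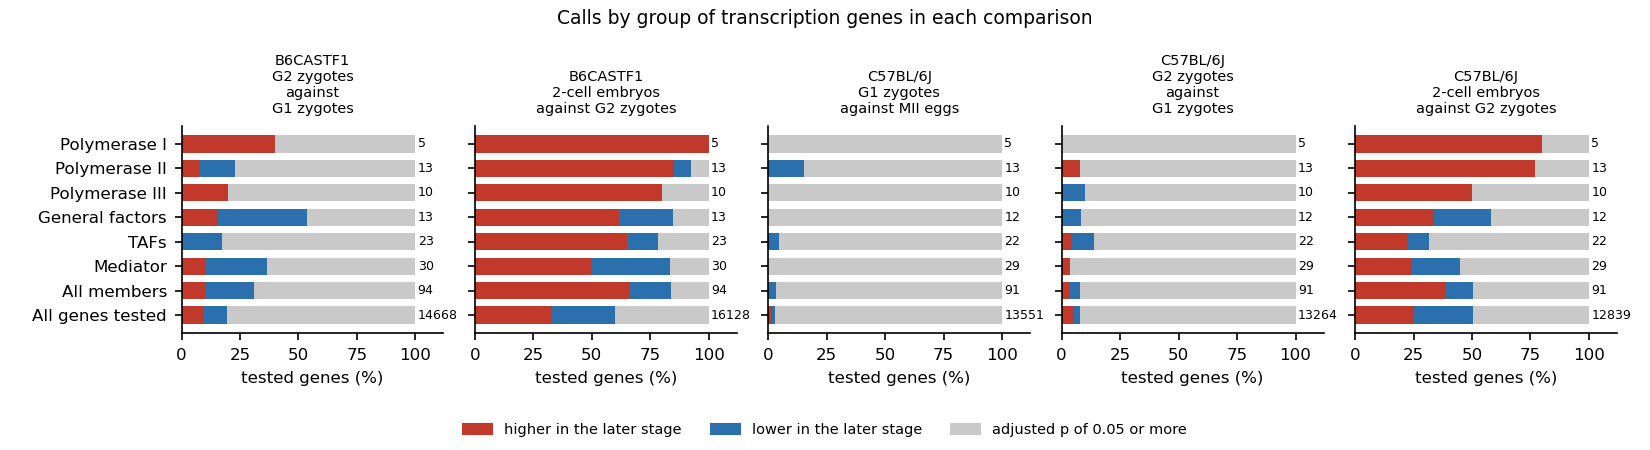
Share of tested genes (%) called higher (red) or lower (blue) in the later stage, or not past an adjusted p of 0.05 (grey), for each group of members, all members and all genes tested, with the number tested at the right of each bar and a panel per comparison. At the 2-cell step 62 of 94 members were higher in B6CASTF1 and 35 of 91 in C57BL/6J, and all 5 polymerase I members were higher in B6CASTF1.

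Few members differed between G1 zygotes and MII eggs, a comparison made in C57BL/6J only. Of 91 members tested 0 were higher and 3 were lower in G1 zygotes, beside 2.75% of all genes called in either direction (1.62% higher and 1.12% lower). By DESeq2 the 3 were Polr2d, which forms the stalk of polymerase II with Polr2g, Polr2l, a small subunit shared by all 3 polymerases, and Taf11, which pairs with Taf13 in TFIID. The level of Polr2d was 5739.9 in G1 zygotes and 24103 in MII eggs, a log2 fold change of -2.07 ± 0.24 in the authors' deposited table (SE, adjusted p = 5.55e-15). Its level was thus lower in G1 zygotes, with the larger fold change of the 2 polymerase calls. Polr2l was at 2928 in G1 zygotes and 6034 in MII eggs (-1.04 ± 0.31 by the authors' deposited table, adjusted p = 0.035). Taf11 was at 142 in G1 zygotes and 385 in MII eggs (-1.44 ± 0.37 by the authors' deposited table, adjusted p = 0.00639). The call of Polr2l rested on how the fold changes were centred: with the median of well-measured genes set to 0 its log2 fold change was -0.97 and did not pass. By group the lower calls were 2 of 13 polymerase II subunits and 1 of 22 TAFs, with 0 calls among 5 polymerase I, 10 polymerase III, 12 general-factor and 29 Mediator genes. Among the 62 tested neighbours of the machinery outside the rule, 1 was higher and 0 lower: Supt4a, a subunit of the elongation factor DSIF, with a level of 1120 in G1 zygotes and 292 in MII eggs (1.94 ± 0.40 by the authors' deposited table, adjusted p = 1.71e-04).

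Between G2 and G1 zygotes members were called in both directions, and more fell than rose in B6CASTF1. In B6CASTF1 10 of 94 members were higher (10.6%) and 19 lower (20.2%) in G2 zygotes, beside 19.3% of all genes called (9.63% in each direction). In C57BL/6J 3 of 91 were higher (3.30%) and 4 lower (4.40%), beside 7.88% of all genes (5.01% higher and 2.87% lower). The share higher in B6CASTF1 and both shares in C57BL/6J were thus near those of all genes. The B6CASTF1 calls fell on all groups. Of polymerase I 2 of 5 subunits were higher and 0 lower, of polymerase II 1 of 13 higher and 2 lower, and of polymerase III 2 of 10 higher and 0 lower. Among general factors 2 of 13 were higher and 5 lower, among TAFs 0 of 23 higher and 4 lower, and in Mediator 3 of 30 higher and 8 lower. The members called lower in both strains were Taf8, Taf3 and Gtf2a1, which are 3 of the 19 lower in B6CASTF1 (15.8%) and 3 of the 4 in C57BL/6J (75%), against 155 of 1335 (11.6%) and 155 of 375 (41.3%) for all genes tested in both. No member was called higher in both, against 285 of 1303 (21.9%) and 285 of 636 (44.8%) of all genes.

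Taf8, which carries Taf10 into TFIID, had the largest change of these. Taf8 had a level of 4613 in G1 zygotes, 1010.3 in G2 zygotes and 1635 in 2-cell embryos of B6CASTF1, and of 6270.4 in MII eggs, 4554 in G1 zygotes, 1176 in G2 zygotes and 2422 in 2-cell embryos of C57BL/6J. Within each strain G2 zygotes stood below G1 zygotes. For Taf8 the authors' deposited tables gave a log2 fold change of -2.19 ± 0.24 in B6CASTF1 (adjusted p = 6.47e-18) and of -1.95 ± 0.36 in C57BL/6J (adjusted p = 6.60e-06). Taf3, a TFIID subunit that binds trimethylated lysine 4 of histone H3, changed by -0.48 ± 0.14 in B6CASTF1 (adjusted p = 0.00518) and -1.14 ± 0.38 in C57BL/6J (adjusted p = 0.035), as log2 fold changes in the authors' deposited tables. Gtf2a1 encodes the large subunit of TFIIA. Gtf2a1 stood at 3084 in G2 zygotes and 6046 in G1 zygotes of B6CASTF1 (log2 fold change -0.97 ± 0.16, adjusted p = 7.07e-08), and at 3422 and 8992 in the same stages of C57BL/6J (-1.39 ± 0.34, adjusted p = 0.00132), by the authors' deposited tables. The remaining TAF calls of this step in B6CASTF1 were Taf6 and Taf13, both lower. Taf13 is the histone-fold partner of Taf11.

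Among the Mediator genes that fell in B6CASTF1 G2 zygotes, Med20 and Med11, both of the head module, fell furthest. Med20 was at 254 in G2 zygotes and 1594 in G1 zygotes, a log2 fold change of -2.65 ± 0.25 in the authors' deposited table (adjusted p = 2.18e-24). Med11 was at 261 in G2 zygotes and 1431 in G1 zygotes (-2.45 ± 0.31 by the authors' deposited table, adjusted p = 1.98e-13). Both were higher again in 2-cell embryos of this strain. The other 6 lower Mediator genes were Med10, Med22, Med24, Med25, Med27 and Med30, of which Med30 did not pass when the median of well-measured genes was set to 0 (-0.42). The 3 higher were Med28 (1.05 ± 0.12, adjusted p = 2.66e-15), Med6 (0.64 ± 0.18, adjusted p = 0.00409) and Med1 (0.58 ± 0.21, adjusted p = 0.0297) in the authors' deposited table. Med1 is the subunit through which nuclear receptors bind Mediator. In C57BL/6J Med16 of the tail was the only Mediator call, at 284 in G2 zygotes and 31.0 in G1 zygotes (3.20 ± 0.83 by the authors' deposited table, adjusted p = 0.00319).

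The polymerase subunits were called in both directions at this step. In B6CASTF1 the higher polymerase I subunits were Polr1d (0.72 ± 0.21, adjusted p = 0.00503) and Polr1e (1.11 ± 0.41, adjusted p = 0.0392) in the authors' deposited table. Polr1d is shared by polymerases I and III, and Polr1e belongs to the dimer that helps polymerase I start and elongate. Polr2b, the second largest polymerase II subunit and part of its active centre, was at 1046 in G2 zygotes and 606 in G1 zygotes (0.79 ± 0.27 by the authors' deposited table, adjusted p = 0.0208). The core assembly subunit Polr2c (-0.60 ± 0.12, adjusted p = 1.30e-05) and Polr2d (-0.89 ± 0.18, adjusted p = 2.28e-05) were lower in the same zygotes by the authors' deposited table. Of polymerase III, Polr3c and Polr3e were the higher genes. In C57BL/6J Polr2k, a small shared subunit, was at 798 in G2 zygotes and 247 in G1 zygotes (1.69 ± 0.46 by the authors' deposited table, adjusted p = 0.00595). Taf11, lower at fertilization, was higher again at 405 in G2 zygotes, against 142 in G1 zygotes (1.51 ± 0.37 by the authors' deposited table, adjusted p = 0.00169). Both Taf11 comparisons use the same G1 samples. Among general factors of B6CASTF1, Gtf2e2 of TFIIE rose most clearly (0.68 ± 0.22 by the authors' deposited table, adjusted p = 0.0145) and Gtf2f1 also passed, while Gtf2a1, its germ-cell paralog Gtf2a1l, Gtf2a2, Gtf2h1 and Gtf2h3 were lower. The TFIIA genes Gtf2a1, Gtf2a1l and Gtf2a2 thus all fell in B6CASTF1 G2 zygotes. Polr3e, of the subcomplex that helps polymerase III start and stop, was called in opposite directions. Its level was 16.3 in G2 zygotes and 0.733 in G1 zygotes of B6CASTF1 (adjusted p = 0.00177), and 0.193 in G2 zygotes and 18.4 in G1 zygotes of C57BL/6J (adjusted p = 0.0162), by DESeq2 in the authors' deposited tables. Each of these rests on a stage with under 1 count.

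**Figure D2:**
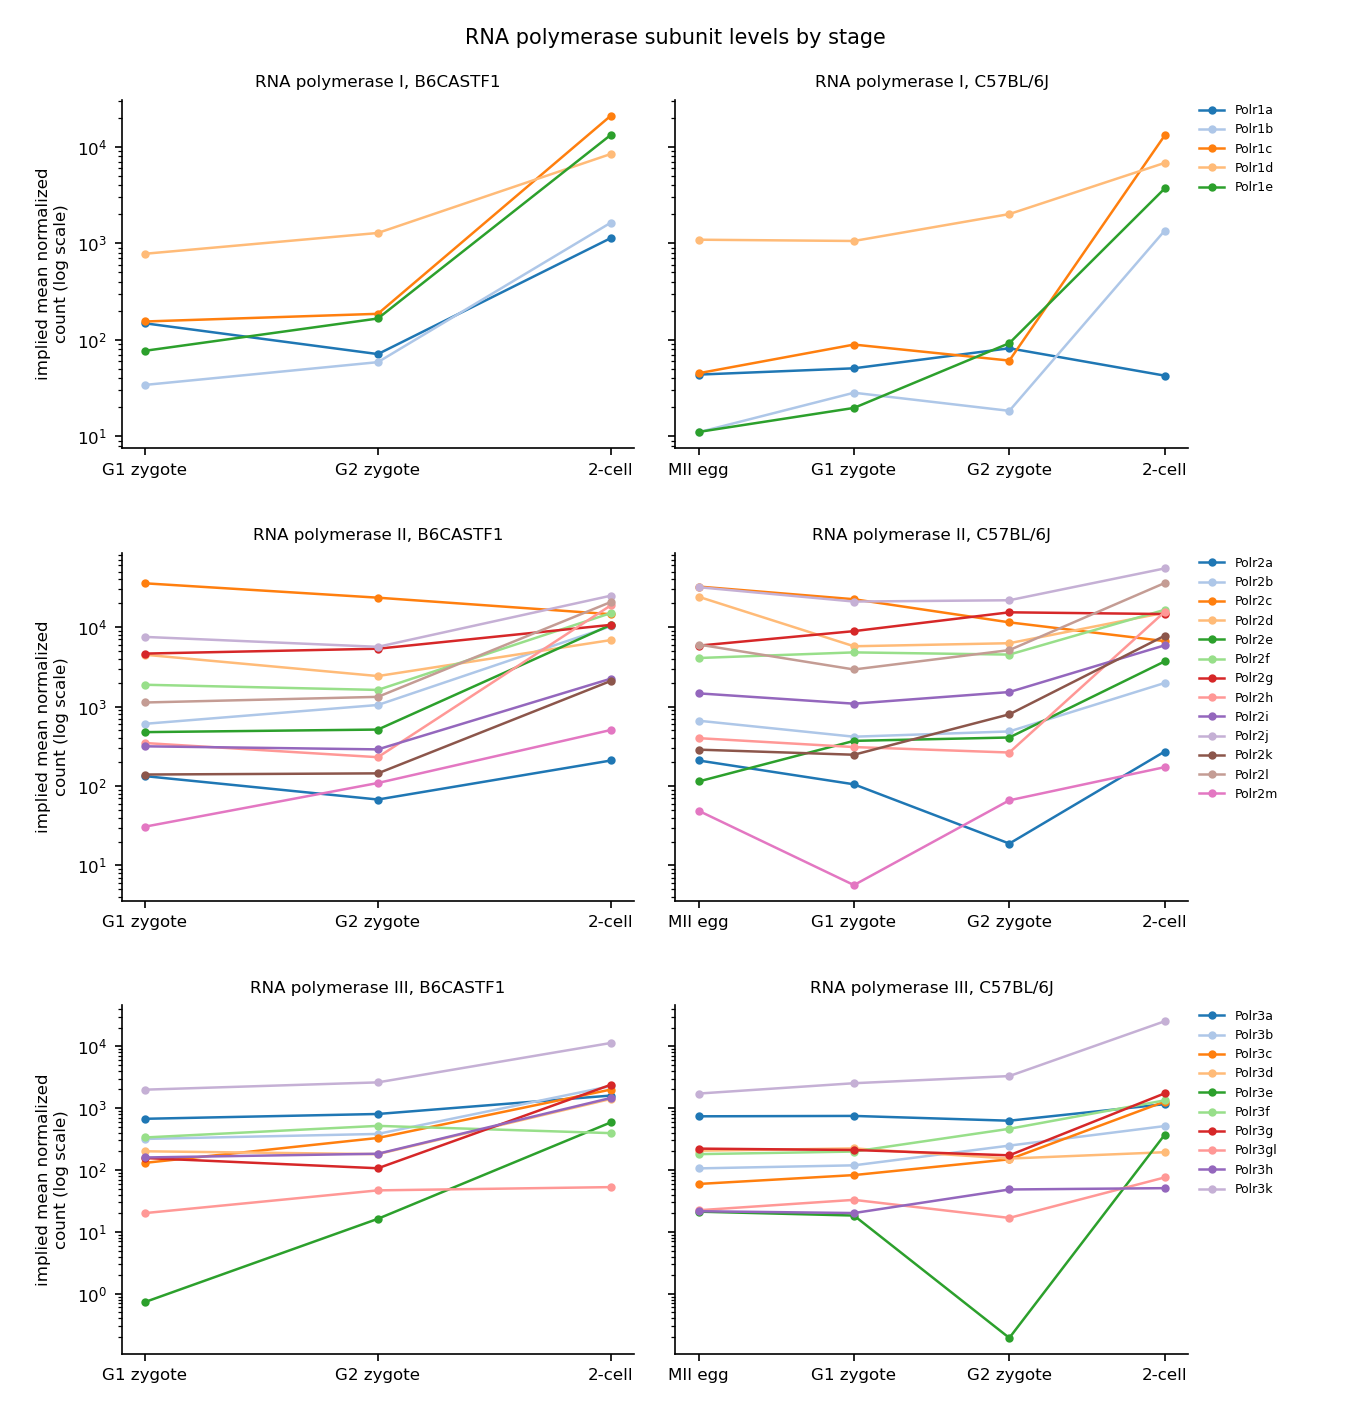
Implied mean normalized count (log scale) of each polymerase subunit by stage, with B6CASTF1 in the left panels and C57BL/6J in the right, a line per gene and no error bars because no values per sample were used. Polr1c, Polr1b and Polr1e climb steeply to the 2-cell embryo in both strains, and Polr2h reaches 18813 and 15585. Polr1a is at 1136 in 2-cell embryos and 71.1 in G2 zygotes of B6CASTF1, and at 42.5 and 81.7 in those of C57BL/6J. The strains' levels are not on a single scale.

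The 2-cell step was the largest change in the machinery and mostly an increase. In B6CASTF1 62 of 94 members were higher and 17 lower in 2-cell embryos than in G2 zygotes, beside 59.9% of all genes called (33.1% higher and 26.8% lower). In C57BL/6J 35 of 91 were higher and 11 lower, beside 50.4% of all genes (25.0% higher and 25.3% lower). The members' median log2 fold change was 1.76 in B6CASTF1 and 1.05 in C57BL/6J, against 0.55 and 0.17 over all genes tested. Of the 91 members tested in both strains, 32 were higher in both, which are 53.3% of the 60 higher in B6CASTF1 and 91.4% of the 35 in C57BL/6J. For all genes 2607 were higher in both, 59.2% of those in B6CASTF1 and 82.6% of those in C57BL/6J. Lower in both were 8 members, 47.1% of 17 and 72.7% of 11, against 58.2% and 71.9% for all genes. The increases were not spread evenly. All 5 polymerase I, 11 of 13 polymerase II and 8 of 10 polymerase III subunits were higher in B6CASTF1, while Mediator held 15 higher and 10 lower of 30. In C57BL/6J the counts were 4 of 5, 10 of 13 and 5 of 10 for the polymerases, and 7 higher and 6 lower of 29 for Mediator.

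The region before the start site is shown for 5 members, chosen after their values were seen: Polr1c and Med29, both called higher in 2-cell embryos of both strains, the relatives Taf9 and Taf9b, called in opposite directions, and Taf7l, the X-linked relative of Taf7. The sequences are the 250 bases 5′ of the RefSeq start site (GRCm38.p6), read on the strand of the gene, with matches to the motifs below in capitals.
Polr1c, chr17:46248046-46248295, minus strand: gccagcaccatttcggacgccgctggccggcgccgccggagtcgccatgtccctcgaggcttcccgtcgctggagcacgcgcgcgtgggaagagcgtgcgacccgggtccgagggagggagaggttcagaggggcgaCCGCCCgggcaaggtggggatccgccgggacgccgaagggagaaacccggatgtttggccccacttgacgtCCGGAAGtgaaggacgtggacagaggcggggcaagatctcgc
Med29, chr7:28392691-28392940, minus strand: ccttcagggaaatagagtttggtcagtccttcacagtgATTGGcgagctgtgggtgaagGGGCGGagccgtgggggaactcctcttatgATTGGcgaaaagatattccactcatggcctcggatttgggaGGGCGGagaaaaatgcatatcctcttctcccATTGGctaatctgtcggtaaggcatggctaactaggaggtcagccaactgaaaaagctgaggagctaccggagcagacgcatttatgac
Taf9, chr13:100651357-100651606, plus strand: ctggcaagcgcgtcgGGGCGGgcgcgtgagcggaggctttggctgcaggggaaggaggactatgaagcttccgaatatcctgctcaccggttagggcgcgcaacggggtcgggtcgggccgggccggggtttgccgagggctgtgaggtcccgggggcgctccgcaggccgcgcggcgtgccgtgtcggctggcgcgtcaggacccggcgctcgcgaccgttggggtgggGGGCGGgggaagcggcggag
Taf9b, chrX:106221159-106221408, minus strand: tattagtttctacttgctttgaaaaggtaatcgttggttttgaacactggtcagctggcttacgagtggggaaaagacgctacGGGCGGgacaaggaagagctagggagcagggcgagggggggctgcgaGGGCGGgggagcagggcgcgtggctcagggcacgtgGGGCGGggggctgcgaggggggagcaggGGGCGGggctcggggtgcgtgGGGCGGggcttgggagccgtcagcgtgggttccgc
Taf7l, chrX:134476491-134476740, minus strand: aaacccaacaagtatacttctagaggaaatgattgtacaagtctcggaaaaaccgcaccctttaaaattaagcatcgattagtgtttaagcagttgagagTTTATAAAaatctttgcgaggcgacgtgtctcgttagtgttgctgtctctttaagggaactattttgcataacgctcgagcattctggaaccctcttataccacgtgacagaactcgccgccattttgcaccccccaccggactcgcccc
Capitals mark, on either strand, the GC box GGGCGG, the box named for its letters CCAAT, the TATA box TATAAA and the ETS-family core CCGGAAG. Polr1c has a GC box at position -113 and an ETS core at -42, counted from the start site. Med29 has a CCAAT box at -212, -161 and -89, with a GC box at -191 and -120, and Taf9 has GC boxes at -235 and -20. Taf9b has 5 GC boxes, at -167, -120, -84, -56 and -35, and Taf7l has overlapping TATA matches at -150 and -148. Both genes of the pair Taf9 and Taf9b thus hold GC boxes although their RNA moved in opposite directions. All 5 windows lie 5′ of the gene as RefSeq starts it, and the last bases of those of Polr1c, Med29 and Taf9 lie inside the gene as GENCODE M21 starts it. GENCODE M21 (GRCm38) places Polr1c (chr17:46243920-46248054, minus strand), Med29 (chr7:28386146-28392708, minus strand), Taf9 (chr13:100651579-100656060, plus strand), Taf9b (chrX:106206883-106221158, minus strand), Taf7l (chrX:134460118-134476490, minus strand) and, with no window matched, Med30 (chr15:52712408-52730564, plus strand) at these positions.

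Over windows of 300 bases, from 250 before to 50 after the start site, 80 of the 95 members had a RefSeq promoter. Med9os is among these, and its window overlaps that of Med9. A GC box stood in 65.0% of members, against 36.0% of all 27025 promoters and 57.4% of those of genes tested at the 2-cell step of B6CASTF1. The ETS core stood in 33.8% of members, against 9.17% of all promoters and 15.6% of those of tested genes, in 9 of the 28 members higher in both strains and in 2 of the 7 lower in both. TATAAA was in 12.5% of members, 14.2% of all promoters and 8.68% of those of tested genes. CCAAT was in 31.3% of members, 37.9% of all promoters and 39.1% of those of tested genes. The 9-letter YY1 motif AAGATGGCG was in 3 of 80 members (3.75%, against 1.48% of all promoters and 2.72% of those of tested genes). The receptor motif CAAGGTCA, of the family to which the Nr5a2 of the series title belongs, was in 0 of 80 members, against 1.51% of all promoters and 1.14% of those of tested genes. CAAGGCCA was in 2.50% of members, against 2.42% of all promoters and 1.89% of those of tested genes. Both strands were searched, overlapping matches were counted, and a match is a description of the letters only.

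Polymerase I had the largest median log2 fold change of the 6 groups, at 4.81 in B6CASTF1 and 5.33 in C57BL/6J. Polr1c had a level of 155 in G1 zygotes, 186 in G2 zygotes and 21137 in 2-cell embryos of B6CASTF1, and of 45.0 in MII eggs, 89.2 in G1 zygotes, 60.9 in G2 zygotes and 13144 in 2-cell embryos of C57BL/6J. Polr1c, a core assembly subunit that polymerase III uses as well, was thus low in egg and zygote and abundant in the 2-cell embryo. For Polr1c the authors' deposited tables gave a log2 fold change of 6.83 ± 0.25 in B6CASTF1 (adjusted p = 5.33e-156) and of 7.75 ± 1.11 in C57BL/6J (adjusted p = 3.83e-11). Polr1e stood at 13367 in 2-cell embryos and 166 in G2 zygotes of B6CASTF1 (log2 fold change 6.33 ± 0.45, adjusted p = 2.90e-44), and at 3707 and 92.2 in the same stages of C57BL/6J (5.33 ± 1.57, adjusted p = 0.00208), by the authors' deposited tables. Polr1b, the second largest subunit and part of the active centre, stood at 1641 in 2-cell embryos and 58.6 in G2 zygotes of B6CASTF1 (log2 fold change 4.81 ± 0.59, adjusted p = 2.30e-15), and at 1355 and 18.3 in the same stages of C57BL/6J (6.21 ± 1.29, adjusted p = 8.20e-06), by the authors' deposited tables. Polr1e and Polr1b were thus called higher in both strains, each scarce in the zygote. Polr1d, the partner of Polr1c, stood at 8457 in 2-cell embryos and 1282 in G2 zygotes of B6CASTF1 (log2 fold change 2.72 ± 0.23, adjusted p = 3.75e-31), and at 6831 and 2012 in the same stages of C57BL/6J (1.76 ± 0.35, adjusted p = 2.05e-06), by the authors' deposited tables. Per kilobase of transcript Polr1d was the highest of the 5 genes in every stage up to the G2 zygote, and Polr1c in the 2-cell embryo, in both strains. The largest subunit Polr1a rose in B6CASTF1, to 1136 in 2-cell embryos against 71.1 in G2 zygotes (4.0 ± 0.54 by the authors' deposited table, adjusted p = 9.46e-13). In C57BL/6J it was at 42.5 in 2-cell embryos and 81.7 in G2 zygotes (-0.94 ± 1.69, adjusted p = 0.674, interval of 95% from -4.26 to 2.37 in the authors' deposited table).

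The 5 subunits that all 3 polymerases share, Polr2e, Polr2f, Polr2h, Polr2k and Polr2l, were all higher in 2-cell embryos of both strains. Of all genes 33.1% were higher in B6CASTF1 and 25.0% in C57BL/6J. The log2 fold changes of the 5 subunits ran from 3.21 to 6.35 in B6CASTF1 and from 1.87 to 5.88 in C57BL/6J. Polr2h had the largest of these. Polr2h had a level of 348 in G1 zygotes, 230.3 in G2 zygotes and 18813 in 2-cell embryos of B6CASTF1, and of 400.0 in MII eggs, 309 in G1 zygotes, 264 in G2 zygotes and 15585 in 2-cell embryos of C57BL/6J. It was called in no comparison before the 2-cell step, and at that step rose in both strains. For Polr2h the authors' deposited tables gave a log2 fold change of 6.35 ± 0.26 in B6CASTF1 (adjusted p = 6.34e-134) and of 5.88 ± 1.11 in C57BL/6J (adjusted p = 7.10e-07). Polr2e stood at 10678 in 2-cell embryos and 513 in G2 zygotes of B6CASTF1 (log2 fold change 4.38 ± 0.21, adjusted p = 2.90e-92), and at 3704 and 408 in the same stages of C57BL/6J (3.18 ± 0.57, adjusted p = 1.54e-07), by the authors' deposited tables. For Polr2l the authors' deposited tables gave a log2 fold change of 3.97 ± 0.23 in B6CASTF1 (adjusted p = 1.08e-64) and of 2.80 ± 0.31 in C57BL/6J (adjusted p = 9.61e-18). Polr2l had the smallest p of the polymerase II genes in C57BL/6J, and with the MII eggs, G1 zygotes, G2 zygotes and 2-cell embryos of that strain at 6034, 2928, 5134 and 35872 it first fell and then rose past its level in the egg.

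Of the subunits found in polymerase II alone (Polr2a, Polr2b, Polr2c, Polr2d, Polr2g, Polr2i and Polr2j), 5 of 7 were higher in each strain, with medians of 1.63 in B6CASTF1 and 1.33 in C57BL/6J. That is 71.4%, beside 33.1% of all genes in B6CASTF1 and 25.0% in C57BL/6J. Polr2b stood at 10252 in 2-cell embryos and 1046 in G2 zygotes of B6CASTF1 (log2 fold change 3.29 ± 0.30, adjusted p = 1.08e-27), and at 1980.0 and 486 in the same stages of C57BL/6J (2.03 ± 0.57, adjusted p = 0.00124), by the authors' deposited tables. The largest subunit Polr2a, whose repeated tail is phosphorylated during transcription, stood at 209 in 2-cell embryos and 67.6 in G2 zygotes of B6CASTF1 (log2 fold change 1.63 ± 0.90, adjusted p = 0.108), and at 272 and 18.8 in the same stages of C57BL/6J (3.85 ± 1.59, adjusted p = 0.0323), by the authors' deposited tables. Its call in C57BL/6J was lost when the median of well-measured genes was set to 0, at a log2 fold change of 3.65. Per kilobase of transcript Polr2a was the lowest or second lowest of the 13 polymerase II genes in every stage of both strains, at 31.1 counts per kb in B6CASTF1 and 40.3 in C57BL/6J 2-cell embryos, against group medians of 6768 and 12959. Its annotated transcript, of 6740 bases, is also the longest of that group, and the effect of length on oligo-dT-primed libraries was not tested. The highest per kb in 2-cell embryos was Polr2j, a core assembly subunit, at 27627 and 60874.

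Polr2c, which pairs with Polr2j, moved the other way. Polr2c had a level of 35592 in G1 zygotes, 23459.6 in G2 zygotes and 14535 in 2-cell embryos of B6CASTF1, and of 32395 in MII eggs, 22421 in G1 zygotes, 11477 in G2 zygotes and 6661 in 2-cell embryos of C57BL/6J. Its level was lower at each later stage than at the one before, and the fall passed the test at both steps in B6CASTF1. For Polr2c the authors' deposited tables gave a log2 fold change of -0.69 ± 0.14 in B6CASTF1 (adjusted p = 1.09e-06) and of -0.79 ± 0.45 in C57BL/6J (adjusted p = 0.135). Polr2d of the stalk, which had fallen at fertilization, stood at 6869.8 in 2-cell embryos and 2419 in G2 zygotes of B6CASTF1 (log2 fold change 1.51 ± 0.21, adjusted p = 1.17e-12), and at 15183 and 6268 in the same stages of C57BL/6J (1.28 ± 0.24, adjusted p = 5.55e-07), by the authors' deposited tables. In C57BL/6J that left it below its level in the eggs, 24103. Polr2g, its partner in the stalk, stood at 10671 in 2-cell embryos and 5346 in G2 zygotes of B6CASTF1 (log2 fold change 1.0 ± 0.20, adjusted p = 1.61e-06), and at 14604 and 15349 in the same stages of C57BL/6J (-0.07 ± 0.36, adjusted p = 0.892), by the authors' deposited tables. Polr2m, also known as Gdown1, which binds polymerase II and restrains its start, was at 507 in 2-cell embryos and 109 in G2 zygotes of B6CASTF1 (2.22 ± 0.90 by the authors' deposited table, adjusted p = 0.0246) and did not pass in C57BL/6J (1.39 ± 1.58 by the authors' deposited table, adjusted p = 0.483).

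Polymerase III genes also increased, with a median log2 fold change of 2.58 in B6CASTF1 and 1.85 in C57BL/6J and 0 lower calls in either strain. Polr3g, known as the form of this subunit found in stem cells, rose in both strains, and its paralog Polr3gl did not pass in either. Polr3g had a level of 156 in G1 zygotes, 107 in G2 zygotes and 2388 in 2-cell embryos of B6CASTF1, and of 222 in MII eggs, 210.5 in G1 zygotes, 173 in G2 zygotes and 1732 in 2-cell embryos of C57BL/6J. For Polr3g the authors' deposited tables gave a log2 fold change of 4.48 ± 0.47 in B6CASTF1 (adjusted p = 5.62e-21) and of 3.33 ± 0.42 in C57BL/6J (adjusted p = 8.61e-14). Polr3gl stood at 52.9 in 2-cell embryos and 46.9 in G2 zygotes of B6CASTF1 (log2 fold change 0.17 ± 1.12, adjusted p = 0.906), and at 75.8 and 16.8 in the same stages of C57BL/6J (2.17 ± 1.96, adjusted p = 0.363), by the authors' deposited tables. The SE of Polr3gl was above 1 in both strains. Polr3k, the RNA-cleaving subunit, stood at 11303 in 2-cell embryos and 2607 in G2 zygotes of B6CASTF1 (log2 fold change 2.12 ± 0.17, adjusted p = 1.22e-33), and at 25343 and 3296 in the same stages of C57BL/6J (2.94 ± 0.24, adjusted p = 1.49e-32), by the authors' deposited tables. Per kilobase Polr3k was the highest of the 10 genes in every stage of both strains. Polr3c stood at 1998 in 2-cell embryos and 329.5 in G2 zygotes of B6CASTF1 (log2 fold change 2.60 ± 0.56, adjusted p = 8.91e-06), and at 1274 and 149 in the same stages of C57BL/6J (3.10 ± 0.84, adjusted p = 7.51e-04), by the authors' deposited tables. Polr3c and Polr3f sit with Polr3g in a trimer that opens the promoter. Of the catalytic pair, Polr3a changed by 0.99 ± 0.30 in B6CASTF1 (adjusted p = 0.00208) and 0.89 ± 1.04 in C57BL/6J (adjusted p = 0.495), as log2 fold changes in the authors' deposited tables. Polr3b stood at 2272 in 2-cell embryos and 383 in G2 zygotes of B6CASTF1 (log2 fold change 2.57 ± 0.27, adjusted p = 1.46e-20), and at 513 and 248 in the same stages of C57BL/6J (1.05 ± 0.77, adjusted p = 0.25), by the authors' deposited tables. Polr3e reached 589.8 in 2-cell embryos of B6CASTF1, against 16.3 in G2 zygotes (5.18 ± 0.67 by the authors' deposited table, adjusted p = 9.11e-14). In C57BL/6J it was at 371 in 2-cell embryos and 0.193 in G2 zygotes and was also called higher.

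**Figure D3:**
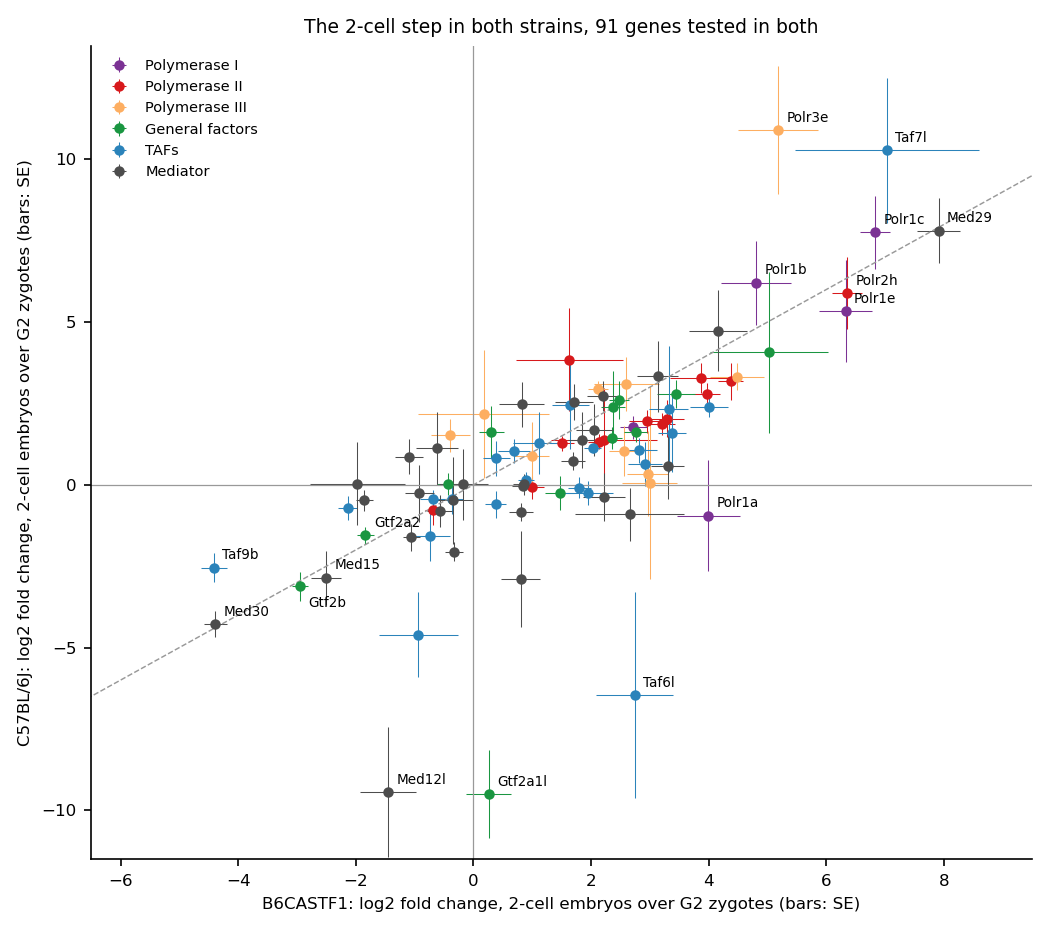
Log2 fold change of 2-cell embryos over G2 zygotes for the 91 members tested in both strains, B6CASTF1 on the x axis and C57BL/6J on the y axis, with bars of 1 SE in each direction, a colour per group and a dashed line where both are equal. Med29, Polr1c and Polr2h lie high in both strains, Med30, Taf9b and Gtf2b low in both, and Gtf2a1l, Med12l and Taf6l far lower in C57BL/6J than in B6CASTF1, with levels under 1 count in C57BL/6J 2-cell embryos.

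General factors were called in both directions. Of 13 genes tested in B6CASTF1 8 were higher (61.5%, beside 33.1% of all genes) and 3 lower (23.1%, beside 26.8%), and of 12 in C57BL/6J 4 were higher (33.3%, beside 25.0%) and 3 lower (25.0%, beside 25.3%). TFIIB and the small TFIIA subunit fell, while both TFIIF subunits rose. Gtf2b had a level of 15632 in G1 zygotes, 15113 in G2 zygotes and 1962 in 2-cell embryos of B6CASTF1, and of 16268 in MII eggs, 12673 in G1 zygotes, 10811 in G2 zygotes and 1241 in 2-cell embryos of C57BL/6J. TFIIB, encoded by Gtf2b, bridges TBP and polymerase II, and its RNA was high in the egg and both zygote stages and low in 2-cell embryos of both strains. For Gtf2b the authors' deposited tables gave a log2 fold change of -2.95 ± 0.13 in B6CASTF1 (adjusted p = 1.48e-104) and of -3.12 ± 0.44 in C57BL/6J (adjusted p = 1.10e-11). Gtf2a2, the small TFIIA subunit, stood at 1437 in 2-cell embryos and 5129 in G2 zygotes of B6CASTF1 (log2 fold change -1.84 ± 0.14, adjusted p = 6.72e-38), and at 3745 and 11014 in the same stages of C57BL/6J (-1.56 ± 0.27, adjusted p = 8.56e-08), by the authors' deposited tables. TFIIF travels with polymerase II and helps it start and elongate. Gtf2f1 stood at 7669 in 2-cell embryos and 1134 in G2 zygotes of B6CASTF1 (log2 fold change 2.76 ± 0.20, adjusted p = 1.53e-41), and at 1709.7 and 561 in the same stages of C57BL/6J (1.61 ± 0.30, adjusted p = 5.61e-07), by the authors' deposited tables. Gtf2f2 stood at 7206 in 2-cell embryos and 1300.4 in G2 zygotes of B6CASTF1 (log2 fold change 2.47 ± 0.17, adjusted p = 7.45e-46), and at 3350.1 and 546 in the same stages of C57BL/6J (2.62 ± 0.58, adjusted p = 3.34e-05), by the authors' deposited tables. For TFIIE, Gtf2e2 was higher in B6CASTF1 (1.47 ± 0.24, adjusted p = 5.85e-09) and did not pass in C57BL/6J (-0.25 ± 0.53, adjusted p = 0.722), by DESeq2 in the authors' deposited tables. Of the 5 TFIIH core genes 4 were higher and 0 lower in B6CASTF1, and 2 higher and 0 lower in C57BL/6J. Gtf2h5, which stabilizes TFIIH, had the smallest p of the general factors called higher in C57BL/6J. Gtf2h5 stood at 5323 in 2-cell embryos and 488 in G2 zygotes of B6CASTF1 (log2 fold change 3.45 ± 0.32, adjusted p = 3.89e-26), and at 14483 and 2106 in the same stages of C57BL/6J (2.78 ± 0.44, adjusted p = 1.64e-09), by the authors' deposited tables. Gtf2h4 stood at 602 in 2-cell embryos and 18.5 in G2 zygotes of B6CASTF1 (log2 fold change 5.03 ± 1.0, adjusted p = 1.56e-06), and at 253 and 15.1 in the same stages of C57BL/6J (4.07 ± 2.48, adjusted p = 0.161), by the authors' deposited tables.

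Among the TAFs 15 of 23 were higher in B6CASTF1 (65.2%, beside 33.1% of all genes) and 3 lower (13.0%, beside 26.8%). In C57BL/6J 5 of 22 were higher (22.7%, beside 25.0%) and 2 lower (9.09%, beside 25.3%). The share of TAFs called higher in C57BL/6J was thus near that of all genes. Taf1, the largest TFIID subunit, rose in both strains. Taf1 stood at 2182 in 2-cell embryos and 311 in G2 zygotes of B6CASTF1 (log2 fold change 2.81 ± 0.31, adjusted p = 2.48e-19), and at 849.9 and 406 in the same stages of C57BL/6J (1.07 ± 0.39, adjusted p = 0.0139), by the authors' deposited tables. Taf1d belongs to SL1, the TBP complex of polymerase I. Taf1d stood at 6848 in 2-cell embryos and 427 in G2 zygotes of B6CASTF1 (log2 fold change 4.0 ± 0.32, adjusted p = 7.68e-34), and at 8135 and 1556 in the same stages of C57BL/6J (2.39 ± 0.29, adjusted p = 5.63e-15), by the authors' deposited tables. Within SL1, Taf1b changed by 2.92 ± 0.29 in B6CASTF1 (adjusted p = 9.92e-23) and 0.64 ± 0.67 in C57BL/6J (adjusted p = 0.44), as log2 fold changes in the authors' deposited tables. Taf1a passed in neither strain. Taf1c was at 348 in 2-cell embryos and 0.321 in G2 zygotes of B6CASTF1, where it was called higher, and had no p in C57BL/6J. Taf8, low in G2 zygotes, was higher again in 2-cell embryos, at 1635 in B6CASTF1 and 2422 in C57BL/6J. For Taf8 the authors' deposited tables gave a log2 fold change of 0.69 ± 0.27 in B6CASTF1 (adjusted p = 0.0178) and of 1.04 ± 0.36 in C57BL/6J (adjusted p = 0.0101). Both Taf8 calls were lost when the median of well-measured genes was set to 0, at 0.47 and 0.84. Taf3 continued down in B6CASTF1 (-2.14 ± 0.16 by the authors' deposited table, adjusted p = 1.87e-40). In C57BL/6J its change was -0.71 ± 0.38 (adjusted p = 0.103 in the authors' deposited table). Taf15, an RNA-binding protein rather than a core TFIID subunit, was lower in C57BL/6J, at 1.25 in 2-cell embryos and 30.3 in G2 zygotes (-4.60 ± 1.31 by the authors' deposited table, adjusted p = 0.00146).

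Pairs of related TAFs were set side by side. Taf9 and Taf9b encode close relatives that occupy the same place in TFIID. Taf9 had a level of 11707 in G1 zygotes, 11600.3 in G2 zygotes and 47384 in 2-cell embryos of B6CASTF1, and of 20199 in MII eggs, 22624 in G1 zygotes, 29267 in G2 zygotes and 64446 in 2-cell embryos of C57BL/6J. Taf9b had a level of 8367 in G1 zygotes, 8437 in G2 zygotes and 397 in 2-cell embryos of B6CASTF1, and of 5171 in MII eggs, 5772 in G1 zygotes, 5139.8 in G2 zygotes and 879 in 2-cell embryos of C57BL/6J. Per kilobase Taf9 stood above Taf9b in every stage, at 24151 and 151 counts per kb in 2-cell embryos of B6CASTF1 and 32847 and 334 in those of C57BL/6J. For Taf9 the authors' deposited tables gave a log2 fold change of 2.03 ± 0.15 in B6CASTF1 (adjusted p = 9.46e-43) and of 1.14 ± 0.16 in C57BL/6J (adjusted p = 1.73e-11). For Taf9b the authors' deposited tables gave a log2 fold change of -4.41 ± 0.22 in B6CASTF1 (adjusted p = 4.90e-85) and of -2.55 ± 0.44 in C57BL/6J (adjusted p = 7.34e-08). Taf9 shares exons with Ak6 on the same strand, so its counts may hold reads of Ak6. Taf7l, the X-linked relative of Taf7 known from germ cells, was under 3 counts until the G2 zygote. Taf7l had a level of 0.407 in G1 zygotes, 2.62 in G2 zygotes and 343 in 2-cell embryos of B6CASTF1, and of 0.583 in MII eggs, 0.150 in G1 zygotes, 0.376 in G2 zygotes and 469 in 2-cell embryos of C57BL/6J. Taf7l was called higher in 2-cell embryos of both strains (adjusted p = 1.92e-05 in B6CASTF1 and 1.84e-05 in C57BL/6J by DESeq2 in the authors' deposited tables). Taf7 stood at 15066 in 2-cell embryos and 8081 in G2 zygotes of B6CASTF1 (log2 fold change 0.90 ± 0.14, adjusted p = 2.97e-10), and at 9285 and 8391 in the same stages of C57BL/6J (0.15 ± 0.24, adjusted p = 0.639), by the authors' deposited tables. The relatives Taf4b, needed for egg formation in the mouse, and Taf4a were both tested. Taf4b stood at 3976 in 2-cell embryos and 381 in G2 zygotes of B6CASTF1 (log2 fold change 3.38 ± 0.24, adjusted p = 3.80e-44), and at 619.5 and 204 in the same stages of C57BL/6J (1.60 ± 1.22, adjusted p = 0.271), by the authors' deposited tables. Taf4a stood at 376 in 2-cell embryos and 624 in G2 zygotes of B6CASTF1 (log2 fold change -0.73 ± 0.34, adjusted p = 0.054), and at 119.6 and 355 in the same stages of C57BL/6J (-1.57 ± 0.76, adjusted p = 0.0715), by the authors' deposited tables. Of the SAGA-type TAFs, Taf5l and Taf6l were higher in B6CASTF1, at 975 and 353 in 2-cell embryos against 97.7 and 52.8 in G2 zygotes. Neither passed in C57BL/6J, where Taf6l was at 0.245 in 2-cell embryos.

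**Figure D4:**
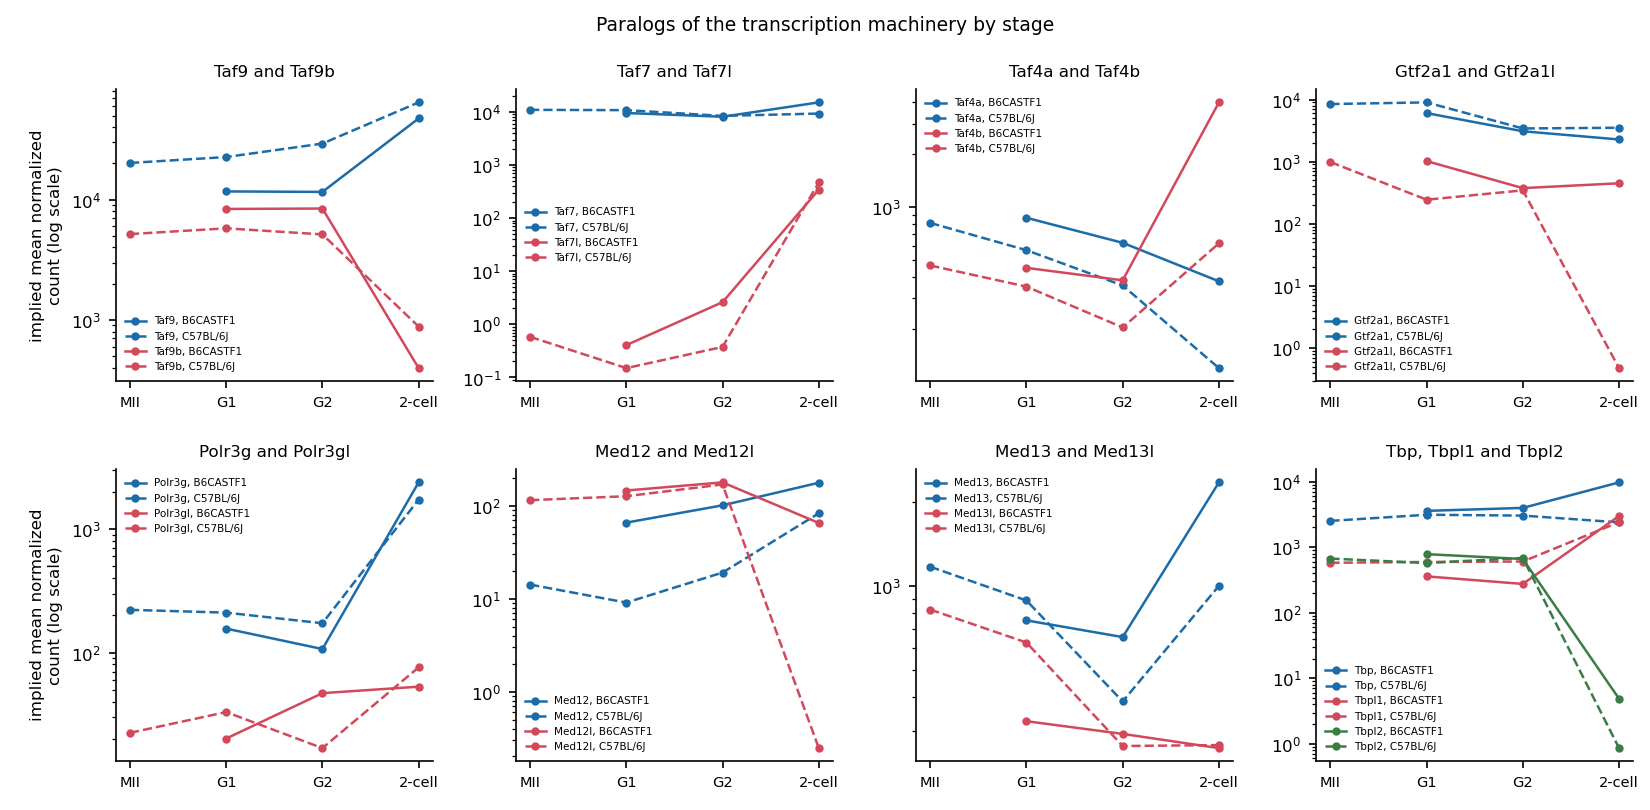
Implied mean normalized count (log scale) by stage for pairs of paralogs and for the TBP family, with a colour per gene, solid lines for B6CASTF1 and dashed lines for C57BL/6J, and no error bars. Taf9b falls to 397 in B6CASTF1 and 879 in C57BL/6J 2-cell embryos while Taf9 reaches 47384 and 64446, and Gtf2a1l and Med12l are under 1 count in C57BL/6J 2-cell embryos.

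TBP itself lies outside the rule but is the partner of most TAFs. Tbp stood at 9751 in 2-cell embryos and 3976 in G2 zygotes of B6CASTF1 (log2 fold change 1.29 ± 0.13, adjusted p = 4.82e-23), and at 2394 and 3037 in the same stages of C57BL/6J (-0.34 ± 0.22, adjusted p = 0.178), by the authors' deposited tables. Tbpl2, the TBP relative used in growing mouse oocytes, was at 4.87 in 2-cell embryos and 660.5 in G2 zygotes of B6CASTF1 (-7.08 ± 0.56 by the authors' deposited table, adjusted p = 5.79e-36). In C57BL/6J Tbpl2 was at 0.860 in 2-cell embryos and 685 in G2 zygotes and was also called lower. Tbpl2 thus had a far lower level in the 2-cell embryo than in the G2 zygote. Tbpl1, another relative of TBP, stood at 2995 in 2-cell embryos and 275 in G2 zygotes of B6CASTF1 (log2 fold change 3.44 ± 0.28, adjusted p = 1.69e-33), and at 2411 and 605 in the same stages of C57BL/6J (1.99 ± 0.81, adjusted p = 0.0293), by the authors' deposited tables. The call of Tbpl1 in C57BL/6J was lost when the median of well-measured genes was set to 0. Gtf2a1l, the TFIIA relative of germ cells, stayed at 448 in B6CASTF1 2-cell embryos, against 375 in G2 zygotes, and was at 0.475 in C57BL/6J 2-cell embryos, against 345 in G2 zygotes.

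Mediator genes were called in both directions, 15 of 30 higher and 10 lower in B6CASTF1 (33.1% and 26.8% of all genes), and 24.1% higher and 20.7% lower in C57BL/6J, near the 25.0% and 25.3% of all genes. The median log2 fold change was 0.81 in B6CASTF1 and 0.01 in C57BL/6J, where it was -0.19 with the median of well-measured genes set to 0. Med29 and Med30, both listed here with the scaffold and tail, had the highest and the lowest value of the 30 genes in B6CASTF1. Med29 had a level of 66.5 in G1 zygotes, 101 in G2 zygotes and 24395 in 2-cell embryos of B6CASTF1, and of 92.8 in MII eggs, 20.1 in G1 zygotes, 123 in G2 zygotes and 27789 in 2-cell embryos of C57BL/6J. Med29 was thus low in the egg and all zygotes and high in 2-cell embryos. For Med29 the authors' deposited tables gave a log2 fold change of 7.91 ± 0.37 in B6CASTF1 (adjusted p = 1.46e-99) and of 7.81 ± 0.99 in C57BL/6J (adjusted p = 4.40e-14). Med30 had a level of 8363 in G1 zygotes, 6029.5 in G2 zygotes and 288 in 2-cell embryos of B6CASTF1, and of 12744 in MII eggs, 12913 in G1 zygotes, 8032 in G2 zygotes and 414 in 2-cell embryos of C57BL/6J. Med30 was the reverse, abundant until the G2 zygote and scarce in 2-cell embryos. For Med30 the authors' deposited tables gave a log2 fold change of -4.39 ± 0.20 in B6CASTF1 (adjusted p = 5.72e-106) and of -4.28 ± 0.40 in C57BL/6J (adjusted p = 2.02e-24). Med15, a tail subunit that binds activators, and Med27 were lower in both strains too. Med15 stood at 323 in 2-cell embryos and 1829 in G2 zygotes of B6CASTF1 (log2 fold change -2.50 ± 0.26, adjusted p = 3.44e-21), and at 192 and 1387 in the same stages of C57BL/6J (-2.85 ± 0.83, adjusted p = 0.0019), by the authors' deposited tables. Med27 stood at 10848 in 2-cell embryos and 22517 in G2 zygotes of B6CASTF1 (log2 fold change -1.05 ± 0.14, adjusted p = 2.39e-13), and at 7128 and 21864 in the same stages of C57BL/6J (-1.62 ± 0.40, adjusted p = 2.53e-04), by the authors' deposited tables. Med24 stood at 1328 in 2-cell embryos and 74.2 in G2 zygotes of B6CASTF1 (log2 fold change 4.16 ± 0.50, adjusted p = 4.32e-16), and at 285 and 10.7 in the same stages of C57BL/6J (4.74 ± 1.23, adjusted p = 4.39e-04), by the authors' deposited tables. Med24, also of the tail, was thus higher in both. Of the 10 scaffold and tail genes 5 were higher and 4 lower in B6CASTF1, and 2 higher and 3 lower in C57BL/6J. The scaffold subunit Med14 was higher in B6CASTF1 (2.06 ± 0.32, adjusted p = 2.82e-10) and did not pass in C57BL/6J (1.68 ± 0.81, adjusted p = 0.0709), by DESeq2 in the authors' deposited tables.

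In the head module 4 of 7 genes were higher and 2 lower in B6CASTF1 (57.1% and 28.6%, beside 33.1% and 26.8% of all genes). In C57BL/6J 2 were higher and 1 lower (28.6% and 14.3%, beside 25.0% and 25.3% of all genes). With so few genes per module these shares are a description only. Med11 stood at 2293 in 2-cell embryos and 261 in G2 zygotes of B6CASTF1 (log2 fold change 3.13 ± 0.35, adjusted p = 9.54e-19), and at 3123 and 309.7 in the same stages of C57BL/6J (3.33 ± 1.08, adjusted p = 0.00556), by the authors' deposited tables. Med8 stood at 1973 in 2-cell embryos and 602 in G2 zygotes of B6CASTF1 (log2 fold change 1.71 ± 0.32, adjusted p = 3.89e-07), and at 5703 and 976 in the same stages of C57BL/6J (2.55 ± 0.55, adjusted p = 2.00e-05), by the authors' deposited tables. Med17, a central subunit of the head, passed in neither strain. Of the 9 middle-module genes 5 were higher and 3 lower in B6CASTF1 (55.6% and 33.3%), and 3 higher and 1 lower in C57BL/6J (33.3% and 11.1%). Med7 and Med21 form the hinge of this module and moved in opposite directions. Med7 stood at 4704 in 2-cell embryos and 1019 in G2 zygotes of B6CASTF1 (log2 fold change 2.21 ± 0.28, adjusted p = 2.62e-14), and at 6292 and 941 in the same stages of C57BL/6J (2.74 ± 0.46, adjusted p = 2.12e-08), by the authors' deposited tables. Med21 stood at 2746 in 2-cell embryos and 3450.5 in G2 zygotes of B6CASTF1 (log2 fold change -0.33 ± 0.15, adjusted p = 0.0491), and at 1584 and 6559 in the same stages of C57BL/6J (-2.05 ± 0.30, adjusted p = 1.65e-10), by the authors' deposited tables. Med1, the nuclear receptor-binding subunit, was lower in B6CASTF1 (-1.10 ± 0.23, adjusted p = 7.38e-06), and its change in C57BL/6J was 0.87 ± 0.52 (adjusted p = 0.156), as log2 fold changes in the authors' deposited tables. Its level in 2-cell embryos was 609.5 in B6CASTF1 and 999.6 in C57BL/6J, from separate fits that are not on a single scale. In the kinase module, which binds Mediator reversibly, Med13 was higher in B6CASTF1 (1.84 ± 0.23 by the authors' deposited table, adjusted p = 4.43e-15), and its paralog Med13l passed in neither strain. Med12 did not pass in B6CASTF1 and had no p in C57BL/6J. Med12l was at 65.6 in 2-cell embryos and 179 in G2 zygotes of B6CASTF1 (-1.45 ± 0.48 by the authors' deposited table, adjusted p = 0.00463), and at 0.246 and 170.3 in the same stages of C57BL/6J.

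**Figure D5:**
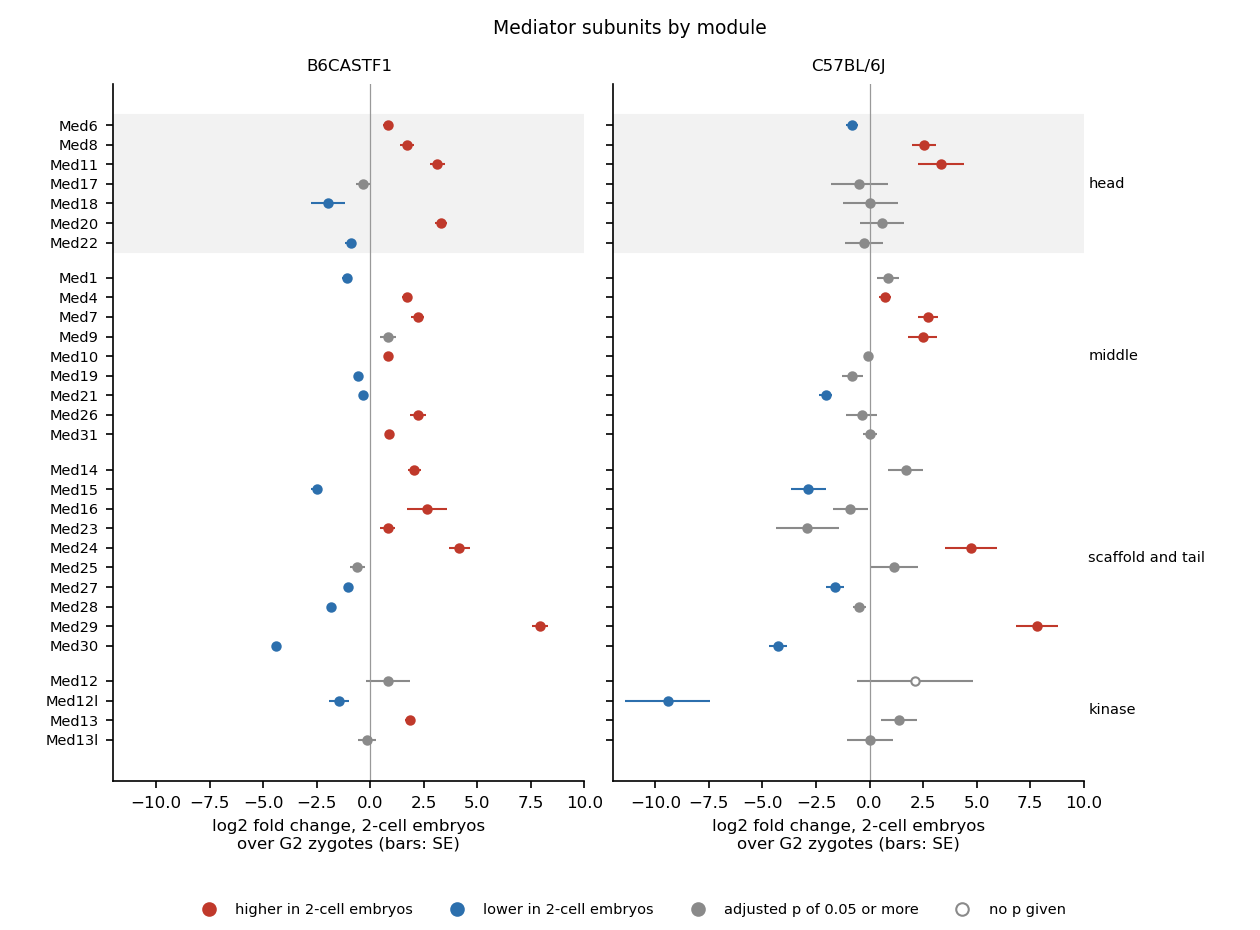
Log2 fold change of 2-cell embryos over G2 zygotes for each Mediator gene, grouped by module, with B6CASTF1 left and C57BL/6J right, bars of 1 SE, and red, blue and grey points for genes called higher, called lower and not past the threshold (open where no p was given). The scaffold and tail hold genes called in both directions in both strains, and Med29 and Med30 lie at 7.91 and -4.39 in B6CASTF1.

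Transcription factors and partners outside the rule were listed as neighbours. Of 68 listed neighbours, 48 of 68 tested were higher and 4 lower at the 2-cell step in B6CASTF1 (70.6% and 5.88%, beside 33.1% and 26.8% of all genes). In C57BL/6J 29 of 61 tested were higher and 3 lower (47.5% and 4.92%, beside 25.0% and 25.3% of all genes). In the polymerase I list, which holds subunits named otherwise, start factors, the termination factor Ttf1 and the transcript release factor Ptrf, 7 of 8 were higher in B6CASTF1 and 6 of 7 in C57BL/6J, with medians of 4.79 and 4.78. In the polymerase III list 14 of 17 and 7 of 15 were higher, and in the elongation list 22 of 32 and 12 of 29. Supt4a had the smallest p of the list at the 2-cell step in B6CASTF1. Supt4a stood at 26284 in 2-cell embryos and 1402 in G2 zygotes of B6CASTF1 (log2 fold change 4.23 ± 0.17, adjusted p = 4.54e-133), and at 35058 and 2431 in the same stages of C57BL/6J (3.85 ± 0.40, adjusted p = 2.68e-20), by the authors' deposited tables. Gpn3, needed to carry polymerase II into the nucleus, stood at 9646 in 2-cell embryos and 26.6 in G2 zygotes of B6CASTF1 (log2 fold change 8.50 ± 0.39, adjusted p = 6.26e-105), and at 3308 and 27.5 in the same stages of C57BL/6J (6.91 ± 1.62, adjusted p = 8.18e-05), by the authors' deposited tables. At the G2 step 12 of 68 neighbours were higher and 8 lower in B6CASTF1 (17.6% and 11.8%, beside 9.63% of all genes in each direction). In C57BL/6J 4 of 62 were higher and 2 lower (6.45% and 3.23%, near the 5.01% and 2.87% of all genes). There Leo1 of the Paf1 complex (-3.0 ± 0.55, adjusted p = 4.49e-06) and Snapc5 (2.36 ± 0.47, adjusted p = 3.35e-05) had the smallest p in the authors' deposited table. Gpn1, the partner of Gpn3, and Supt4a had the smallest p at that step in B6CASTF1, with a log2 fold change of 1.55 ± 0.19 for Gpn1 (adjusted p = 1.52e-14) and 1.24 ± 0.16 for Supt4a (adjusted p = 2.52e-13) by the authors' deposited table. Snapc4 was second by p at fertilization but did not pass (adjusted p = 0.149 by DESeq2 in the authors' deposited table).

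The strains were compared by the difference of their log2 fold changes over the combined SE (2-sided normal p, Benjamini-Hochberg over all genes tested in both). At the G2 step 4 of 91 members differed, 1 higher and 3 lower in B6CASTF1, beside 1.92% of all genes (1.04% higher and 0.879% lower), and 11 had an unadjusted p under 0.05. They were Polr3e, Med16, Polr2d and Taf11. With the median of well-measured genes set to 0, Polr2d (-0.93, adjusted p = 0.0834) and Taf11 (-1.68, adjusted p = 0.0742) no longer passed by the normal test on DESeq2's values. Limited to genes averaging 100 counts or more in each strain, they had adjusted p of 0.0511 and 0.0580 by the same test, and Med16 was not among those genes. Med16 changed by -1.11 ± 0.84 in B6CASTF1 and 3.20 ± 0.83 in C57BL/6J in the authors' deposited tables, a difference of -4.30 (B6CASTF1 minus C57BL/6J, adjusted p = 0.0205 over all genes by this normal test, from DESeq2's values). At the 2-cell step 29 of 91 differed, 22 higher and 7 lower in B6CASTF1, beside 16.6% of all genes (11.6% higher and 5.03% lower), and 41 had an unadjusted p under 0.05.

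The differences at the 2-cell step fell in every group. Taf10, shared by TFIID and SAGA, was at 7657 in 2-cell embryos and 2192 in G2 zygotes of B6CASTF1, and at 1332 and 1411 in the same stages of C57BL/6J. The difference for Taf10 was 1.89 ± 0.37 (adjusted p = 1.35e-05 over all genes, from DESeq2's values). Med6, a head subunit, was called higher in B6CASTF1 (0.81 ± 0.20) and lower in C57BL/6J (-0.83 ± 0.28) in the authors' deposited tables, a difference of 1.64 ± 0.35 (adjusted p = 6.95e-05, from DESeq2's values). It was the only member called in opposite directions at this step, where 124 of 12573 genes were. Polr1a differed by 4.94 ± 1.78 (adjusted p = 0.0357, from DESeq2's values). The differences of Polr1b, Polr1c, Polr1d and Polr1e did not pass. Med1 differed by -1.97 ± 0.57 (adjusted p = 0.00665) and Taf9b by -1.86 ± 0.50 (adjusted p = 0.00245), both from DESeq2's values and both lower in B6CASTF1. Of the TFIIF genes, Gtf2f1 differed by 1.15 ± 0.36 (adjusted p = 0.0134), and for Gtf2f2 the difference was -0.15 ± 0.61 (adjusted p = 0.92), both from DESeq2's values. The strains were fitted apart, so their levels are not on a single scale, and the larger SE in C57BL/6J limits which differences could pass.

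Over all comparisons 7 members with a p in B6CASTF1 were called in none: Med12, Med13l, Med17, Polr3gl, Taf1a, Taf4a and Taf5. Levels under 1 count in a stage were found for 3 members other than Med9os in B6CASTF1 (Polr3e, Taf1c and Taf7l) and for 7 in C57BL/6J (Gtf2a1l, Gtf2h4, Med12l, Polr3e, Taf1c, Taf6l and Taf7l). Exons of 35 members overlap those of another gene on either strand, 6 of them on the same strand, and whether strand was used in counting was not given in the sources used here. Among the members higher in both strains at the 2-cell step, 10 of 32 have such an overlap: Med24, Med29, Med7, Polr2b, Polr2f, Polr2h, Polr2i, Polr2j, Taf1d and Taf9. So do 4 of the 8 lower in both: Med12l, Med15, Med21 and Med27. Polr2c and Taf10 overlap Dok4 and Ilk on the other strand. The counts of these members may hold reads of the overlapping gene, which was not tested. Med9os was at 1.87 in G1 zygotes, 0.162 in G2 zygotes and 14.8 in 2-cell embryos of B6CASTF1, with no adjusted p, and had no fold change in C57BL/6J.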

How the data were processed

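Batches of 10 to 15 eggs or embryos, 20 in all, gave poly(A) RNA that was amplified by Smart-seq2 with oligo-dT priming, per the labels' protocols. The submitters' processing notes name, without roles, DESeq2, Picard, TopHat, kallisto, bcl2fastq and the build mm10, and the authors' 5 tables carry DESeq2 1.18.1 in their names. Each of these tables gives, per the file headers, the mean normalized count as a signal averaged over a strain's samples, the log2 fold change with SE, its shrunken form, the Wald score, and the p-value before and after adjustment. The mean count was checked to be the same in all tables of a strain, and the depth of each sample is unknown.

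From these were computed the calls, stage levels weighted by samples per stage, the strain differences, 95% intervals (1.96 SE) and counts by group. No new test per sample was possible. GENCODE M21 (GRCm38) gave position, overlap and longest coding transcript for 94 of the 95 members. RefSeq windows of 300 bases (GRCm38.p6) gave promoters for 80.

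The members and lists were chosen with earlier results of these data known. Named genes followed a written rule: in each comparison the called member of each group with the smallest p in each direction, every called member of the 2 comparisons with few calls, the 2 highest and 2 lowest of each group at the 2-cell step with a mean count of at least 100, the catalytic subunits, the paralog pairs, members with a strain difference, the TBP family and the 2 neighbours with the smallest p. Polr2c, Polr2e, Polr2m, Med1, Med7, Med8, Med11, Med14, Med27, Gtf2e2, Taf1 and Taf15 were described in part for their role or after their values were seen. Alternatives were stricter and looser thresholds, Bonferroni, minimum mean counts, a minimum fold change, recentring, SE raised 1.5 times and the shrunken estimates. Scripts ran in Python 3.11.15 with matplotlib 3.10.9, scipy 1.17.1, pandas 2.3.3 and numpy 2.4.6.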

Additional observations from a re-analysis of the deposited data

Results flagged for a closer look

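In 30 members the change between stages differed between B6CASTF1 and C57BL/6J by a test of the difference itself, 33 differences in all, with an adjusted p under 0.05 over all genes tested in both strains; values are B6CASTF1 minus C57BL/6J on the log2 scale, with SE (Med16 at the G2 step without). At the G2 step they were Polr3e (11.04 ± 2.30), Med16 (-4.30), Polr2d (-1.02 ± 0.30) and Taf11 (-1.76 ± 0.53); the value of Polr3e rests on levels under 1 count in a stage of each strain, and is no bound. At the 2-cell step 19 members with levels of at least 1 count in the stages compared were higher in B6CASTF1: Taf10 (1.89 ± 0.37), Med21 (1.72 ± 0.34), Med6 (1.64 ± 0.35), Taf9 (0.89 ± 0.22), Med10 (0.89 ± 0.22), Taf11 (2.19 ± 0.56), Taf1d (1.62 ± 0.44), Taf1 (1.75 ± 0.49), Polr2f (1.34 ± 0.40), Gtf2f1 (1.15 ± 0.36), Med26 (2.58 ± 0.82), Taf1b (2.28 ± 0.73), Polr2l (1.16 ± 0.39), Gtf2e2 (1.72 ± 0.58), Med16 (3.56 ± 1.23), Polr1a (4.94 ± 1.78), Med4 (0.96 ± 0.35), Taf7 (0.75 ± 0.27) and Polr2j (0.81 ± 0.30). Lower in B6CASTF1 were Med28 (-1.38 ± 0.34), Taf9b (-1.86 ± 0.50), Taf3 (-1.42 ± 0.41), Med1 (-1.97 ± 0.57), Polr3f (-1.92 ± 0.61) and Polr3k (-0.83 ± 0.30). For Gtf2a1l (9.76 ± 1.40), Med12l (7.98 ± 2.04), Taf6l (9.20 ± 3.24) and Polr3e (-5.73 ± 2.08) a C57BL/6J stage was under 1 count, so the size of the difference is uncertain.

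Taf11 appears at both steps with opposite signs and shares the G2 zygotes between them, as do Med16 and Polr3e. The members' median SE at the 2-cell step was 0.29 in B6CASTF1 and 0.57 in C57BL/6J, and the sum of the 2-cell markers was 17627 in B6CASTF1 and 5588 in C57BL/6J 2-cell embryos. In G2 zygotes that sum was 1824 in B6CASTF1 and 1139 in C57BL/6J. The strains were fitted apart, so the sums of B6CASTF1 and C57BL/6J are not on a single scale. The part of the SE or of the markers' levels in these differences was not tested.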

How the results depend on the processing

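No called value of a named gene changed sign with recentring or shrinkage (126 values), but 11 of 191 that were not called did with recentring, among them Taf7 in C57BL/6J (-0.05) and Polr3gl in B6CASTF1 (-0.05) 2-cell embryos. Shrinkage draws values towards 0, and recentring moved them by 0.22 at most, at the 2-cell step of B6CASTF1. The unchanged signs of called values were thus largely fixed in advance and say little about how firm the calls are. The Mediator median changed sign with recentring at the 2-cell step of C57BL/6J (-0.19, against 0.01) and at the G2 step of B6CASTF1 (0.003, against -0.05). With an adjusted p under 0.01, B6CASTF1 members higher in G2 zygotes numbered 4 (10 at 0.05), C57BL/6J members lower in G2 zygotes 2 (4), strain differences at the 2-cell step 11 higher and 4 lower in B6CASTF1 (22 and 7), and those lower at the G2 step 0 (3). With 0.1, C57BL/6J members higher numbered 1 in G1 zygotes (0) and 7 in G2 zygotes (3). Under Bonferroni, B6CASTF1 members numbered 1 higher and 9 lower in G2 zygotes (10 and 19) and 10 lower in 2-cell embryos (17), and C57BL/6J members 1 lower in G1 zygotes (3), 0 higher and 1 lower in G2 zygotes (3 and 4), and 20 higher and 7 lower in 2-cell embryos (35 and 11). With an absolute log2 fold change of at least 1, B6CASTF1 had 4 higher and 8 lower in G2 zygotes and 11 lower in 2-cell embryos. With the SE raised 1.5 times, B6CASTF1 had 1 higher and 9 lower in G2 zygotes and 11 lower in 2-cell embryos, C57BL/6J had 1 lower in G1 zygotes and 0 higher and 1 lower in G2 zygotes, and strain differences were 0 higher and 0 lower at the G2 step (1 and 3) and 4 higher and 0 lower at the 2-cell step. Strain differences lower in B6CASTF1 at the G2 step numbered 1 after recentring and 0 with a mean count of at least 100. Bonferroni, the smaller thresholds and the raised SE call less by construction; the cause of the other moves was not tested. The numbers of members higher at the 2-cell step of B6CASTF1 stayed within 1.5 times of 62 under every alternative.

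No paired analysis was possible because the tables hold comparisons and no values per sample, and for the same reason no sample could be left out. Weights of 3, 3 and 3 samples for B6CASTF1 were not run, since the tables' lowest mean counts gave 8 libraries. Precision is limited by the SE in C57BL/6J, with a median of 0.83 to 0.90 over genes averaging 100 counts or more.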

Other observations

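Annotated transcript lengths of the members were set beside their calls at the 2-cell step. In B6CASTF1 the median length was 2217 bases for the 62 higher, 3410 for the 17 lower and 2966 for the 14 with a length that did not pass. In C57BL/6J it was 1743 bases for the 35 higher, 1621 for the 11 lower and 3097 for the 44 that did not pass. Over all genes the medians were 2659 for higher and 3143 for lower genes in B6CASTF1, and 2492 and 2954 in C57BL/6J. The part of transcript length in the calls was not tested.

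Subunits of a single enzyme differed widely in level per kilobase. In 2-cell embryos the highest polymerase I subunit, Polr1c, stood 130.5 times above the lowest, Polr1a, in B6CASTF1, and the same pair stood 2169 times apart in C57BL/6J. For polymerase II the ratio of Polr2j to Polr2a was 889 in B6CASTF1 and 1510.4 in C57BL/6J. These ratios have no SD, and Polr1a was at only 42.5 counts in C57BL/6J 2-cell embryos. The lowest genes also have the longer annotated transcripts, 9216 bases for Polr1a against 1314 for Polr1c and 6740 for Polr2a against 900 for Polr2j. The part of length in these ratios was not tested.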
